A study of Mus musculus with 12 samples.

Results

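The 9 genes described here, Insr, Igf1r, Irs1, Irs2, Akt1, Akt2, Mtor, Rptor and Tsc1, are core members of the insulin, AKT and mTOR pathway, and were chosen by name from 21887 mouse protein-coding genes. The choice was made with earlier results of these data known, so shares and ratios over the 9 genes are a description and not a test. The m5C peaks of the 9 genes were those that overlapped the gene's span on its own strand. With this rule 8 of the 9 genes had at least 1 peak and Akt2 had none, and the 69 peaks lay in 21 separate regions. The material was hippocampus of female wild-type (WT) C57BL/6 mice, young at 3 months or aged at 18 months, with no other treatment named and 3 samples per age. In each sample, fragmented total RNA was pulled down with an antibody against 5-methylcytosine (m5C), and the captured RNA and its own unselected input were sequenced. The 12 libraries so made gave 1 deposited peak list per sample, and a peak is a stretch of RNA that the authors' peak caller found enriched in the pull-down over input. Whether separate animals gave the samples of an age is not stated. The exact permutation p-values below rank the difference between ages among all relabelings of the 6 lists. They therefore speak for these samples only, and part of the spread between lists may be technical.

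Insulin and insulin-like growth factor 1 bind receptor tyrosine kinases at the cell surface, here encoded by Insr and Igf1r. The activated receptors phosphorylate docking proteins (Irs1 and Irs2), which recruit PI3-kinase, and the lipid it makes brings AKT kinases (Akt1 and Akt2) to the membrane for activation. AKT inhibits the TSC complex, of which Tsc1 is a subunit, and this releases the mTOR kinase (Mtor) in complex 1, whose defining subunit Raptor (Rptor) picks out substrates that control translation and autophagy. In the hippocampus the pathway is known for its part in synaptic plasticity and memory. In mRNA, m5C is a methylated cytosine placed by enzymes such as NSUN2 and NSUN6, and antibody peaks locate it to a stretch of RNA and not to a single base.

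The stretch of RNA with a peak in every aged list and in no young list that could be shown as sequence lay near the start of Irs2. The window below is chr8:11007600-11007899 of GRCm38.p6 (the mm10 build), on the minus strand in the sense of Irs2, and lies 1030 to 1329 bases downstream of the first base of the gene. It lay inside 1 Irs2 peak of each of the 3 aged lists. RefSeq is the source of the sequence, which was taken from the start window of 9530052E02Rik, a lncRNA gene on the opposite strand. Capitals mark CNGGG, a cytosine followed by any base and 3 guanines, which is the G-rich context known for NSUN2 sites.
Irs2: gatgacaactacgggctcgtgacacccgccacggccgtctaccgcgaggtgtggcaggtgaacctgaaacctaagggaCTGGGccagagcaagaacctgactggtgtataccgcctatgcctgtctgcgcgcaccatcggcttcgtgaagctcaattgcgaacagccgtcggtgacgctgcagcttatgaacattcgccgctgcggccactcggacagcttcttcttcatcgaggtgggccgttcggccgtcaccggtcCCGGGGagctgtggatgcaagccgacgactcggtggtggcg
The window held 30.3% C and 62.3% G or C, against a mean of 53.8% G or C over 32817 RefSeq gene-start windows of the same length. CNGGG occurred 3 times on the Irs2 strand, 2 of them overlapping, and 1 time on the other strand. At least 1 CNGGG was present in 79.9% of all windows and at least 3 in 37.7%, so this number was not rare. CTCCA, the motif known for NSUN6, was not among the letters of this window on either strand, while 39.7% of all windows held it on the strand of their gene. Reading from the first base, 1 of the 3 reading frames had no stop codon. These matches describe letters and do not locate a modified base.

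The lists differed in length before any gene was considered. Young lists held 8549 to 10392 peaks and aged lists 14008 to 15189, a ratio of mean lengths of 1.51. Over all protein-coding genes, 5119 ± 276 had a peak per young list and 6418 ± 229 per aged list (SD, n = 3 each), a ratio of 1.25. Read numbers did not come with the lists, so the depth behind each peak is unknown. A peak also needs the transcript itself, and in bulk tissue fewer cells of a type and less RNA per cell cannot be told apart. Markers of hippocampal neurons had peaks for 11 of 11 genes, with a summed 25 to 32 peaks per young list and 36 to 45 per aged list. Astrocyte markers had peaks for 6 of 7 genes (5 to 9 young, 11 to 14 aged, none in Aldoc), and oligodendrocyte markers for 6 of 7 (4 to 6 young, 6 to 8 aged, none in Cnp). Endothelial and mural markers had peaks for 5 of 6 genes (3 to 5 young, 4 to 6 aged, none in Cldn5). Microglia markers had peaks for 2 of 6 (1 to 2 young, 1 to 3 aged), with none in Csf1r, P2ry12, Tmem119 or C1qa. Of the 5 choroid plexus and ependyma markers, Ttr alone had peaks, 3 in the third young list and 0 in the other lists. The part of list length and of cell makeup in the values below was not tested gene by gene, except where lists of equal length are given.

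Aged lists had more peaks in the 9 genes than young lists. There were 7, 7 and 8 peaks in the young lists and 16, 18 and 13 in the aged lists, and the ages did not overlap. The means were 7.33 ± 0.577 and 15.7 ± 2.52 (SD, n = 3 each), a ratio of 2.14 beside 1.52 over all genes. Of the 9 genes, 4, 4 and 5 had a peak in the young lists and 7 in each aged list, which is 44.4% to 55.6% against 77.8%. Over all protein-coding genes the shares were 22.0% to 24.5% and 28.5% to 30.5%. The 9 spans are long, from 21064 to 296687 bases. Over all lists together, 8 of the 9 had a peak in some list, beside 60.3% of the 9739 genes at least as long as the shortest. This 60.3% is not a share per list. Counted per 10000 peaks of its list, the 9 genes held 7.08, 8.19 and 7.70 young and 10.5, 12.9 and 9.09 aged, a ratio of means of 1.41. The bases covered were 3593 ± 455 in young and 11351 ± 3072 in aged lists (SD, n = 3 each), with a mean of 489 ± 22.5 and 724 ± 141 bases per peak.

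**Figure D1:**
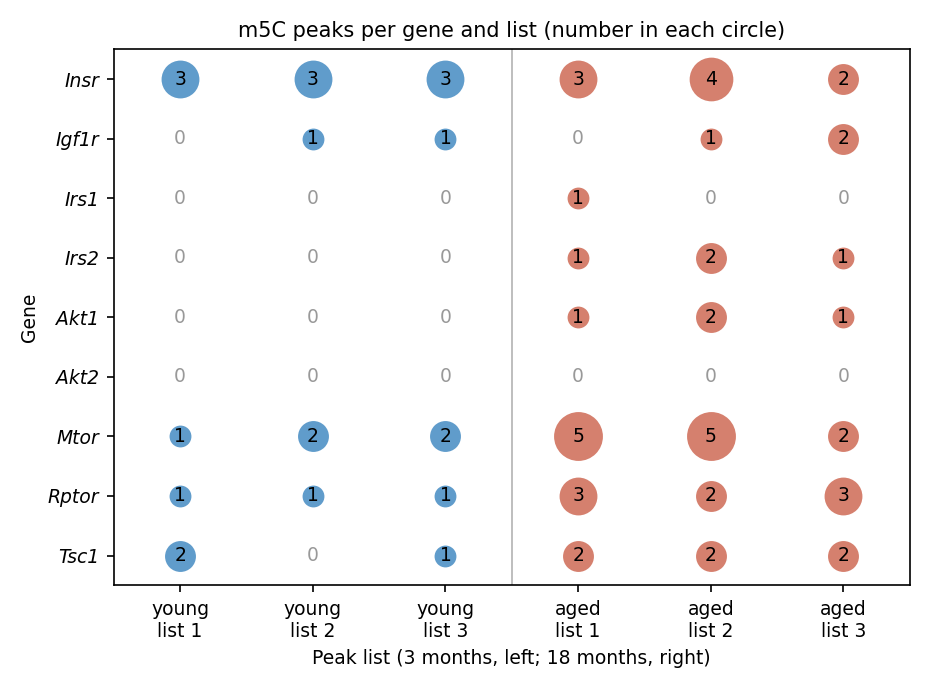
Number of m5C peaks in each of the 9 genes (rows) in the 3 young and 3 aged lists (columns), with circle area proportional to the number. Irs2 and Akt1 have peaks in the 3 aged lists and in no young list, while Insr has 2 to 4 peaks in every list.

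The receptors had similar numbers of peaks at both ages. Insr, the insulin receptor, had 3 peaks in each young list and 3, 4 and 2 in the aged lists. With 18 peaks in all, the most of the 9 genes, its mean was 3 at both ages (exact permutation p = 1). Igf1r, the receptor for insulin-like growth factor 1, had 0, 1 and 1 young and 0, 1 and 2 aged peaks, or 0.667 ± 0.577 and 1 ± 1 (SD, n = 3 each, exact permutation p = 1). Its 2 ages overlapped fully, and 1 list of each age had no Igf1r peak.

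The Insr peaks lay in the last part of the gene, which runs on the minus strand at chr8:3150922-3279649. One region of 4385 bases, chr8:3151639-3156023, ended 717 bases before the end of the span and had peaks in all 6 lists. It held 13 of the 18 Insr peaks, 424 to 2886 bases wide. Only the 2886-base peak, in the second aged list with a score of 55.01, covered the bases between 3152727 and 3153977. That peak alone joined the stretches on either side into 1 region. A second region of 126 bases, chr8:3169709-3169834, lay 85.4% of the way along the gene and had a peak in the 3 young lists and in the second aged list only. The authors' scores there were 448.1, 80.83 and 276.27 in the young lists and 442.76 in the aged list. A score is the authors' value for a peak and is read only within its list. The young 1 and aged 2 peaks stood at or above 78.2% and 77.4% of all peaks of their lists. At chr8:3161339-3161498 the second aged list had a further peak that no other list held.

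In Igf1r (chr7:67952257-68233668, plus strand) 4 of 5 peaks fell into 1 region of 3580 bases, chr7:68226020-68229599, centred 97.9% along the gene. It was present in the second young list and in aged lists 2 and 3. The remaining peak, of 546 bases at 18.4% of the gene, occurred in the third young list alone. In both receptor genes the widest region lay in the last 10% of the span.

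Neither docking gene had a peak in a young list. Irs1 had 1 peak in the first aged list and none in the other 5 lists (exact permutation p = 1), of 774 bases at chr1:82286777-82287550, with a score of 84.06. Irs2 had no peak in any young list and 1, 2 and 1 in the aged lists (1.33 ± 0.577, SD, n = 3; exact permutation p = 0.1, the smallest that 3 against 3 allows, and 0.779 after Benjamini-Hochberg adjustment over 9388 genes). All 4 Irs2 peaks lay in 1 region of 3989 bases, chr8:11004470-11008458, which began 471 bases into the gene (chr8:10984681-11008929, minus strand). The 3 peaks that held the printed window began at the same base and were 2372, 2257 and 2277 bases wide, with scores of 242.12, 115.0 and 164.89. They stood at or above 64.8%, 42.4% and 54.9% of the peaks of their lists, so they were of ordinary rank. The fourth, in the second aged list, was 1659 bases wide and lay just downstream.

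Among the AKT kinases, Akt1 had the same counts as Irs2, 0 in each young list and 1, 2 and 1 in the aged lists (exact permutation p = 0.1, adjusted 0.779). A region of 148 bases, chr12:112659129-112659276, lay 74.5% along the gene (chr12:112653821-112674884, minus strand), with the same ends in the 3 aged lists. Its scores were 102.21, 129.48 and 63.05, and the lowest of these stood at or above 13.9% of the peaks of its list. The other Akt1 peak, 139 bases wide, was in the second aged list alone. Akt2, the isoform best known for insulin-driven glucose uptake, had no peak within chr7:27591552-27640826 in any list. With peaks in 3 of 3 aged and 0 of 3 young lists, Irs2 and Akt1 were 2 of the 8 genes with a peak, or 25%, where 4.19% of all 9388 genes with a peak had this pattern.

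Mtor, the kinase of both mTOR complexes, had 1, 2 and 2 young peaks and 5, 5 and 2 aged peaks. Its means were 1.67 ± 0.577 and 4 ± 1.73 (SD, n = 3 each, exact permutation p = 0.3), and the third aged list lay within the young range. The 17 peaks sat in 5 short regions of the span chr4:148448582-148557685 on the plus strand, and in each region the ends were the same in every list that had the peak. The region chr4:148458627-148458902, of 276 bases, was present in all 6 lists. Its scores were 57.65, 84.0 and 142.0 in the young and 170.11, 249.22 and 225.57 in the aged lists. Within their own lists those peaks stood at or above 9.16%, 35.2% and 55.0% of the young peaks and 55.4%, 65.8% and 63.3% of the aged peaks. A neighbouring region of 135 bases, chr4:148455985-148456119, had peaks in the 3 aged lists alone, with scores of 77.89, 70.44 and 64.36. Regions at 5.7% and 60.8% of the gene were found in the first and second aged lists, and 1 at 82.7% in those lists and in young lists 2 and 3.

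Rptor, the substrate-binding subunit of mTOR complex 1, had 1 peak in each young list and 3, 2 and 3 in the aged lists. The means were 1 ± 0 and 2.67 ± 0.577 (SD, n = 3 each, exact permutation p = 0.1, adjusted 0.779), and the ages did not overlap. The region that both ages shared, chr11:119887037-119887151, was 115 bases long, lay 12440 bases before the end of the span, and was present in the 3 young lists and in aged lists 1 and 3. A pair of regions was found in every aged list and no young list. One, chr11:119603148-119603971, began 243 bases from the start of the gene (chr11:119602905-119899591, plus strand), and its peaks were 563, 824 and 471 bases wide with scores of 123.95, 68.54 and 221.6. The other, chr11:119781618-119782281, lay 60.3% along the gene and had scores of 60.92, 83.53 and 85.23. Each of the 3 peaks in either region shared the same downstream end.

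Tsc1, a subunit of the complex that holds mTOR complex 1 in check, had 2, 0 and 1 young peaks and 2 in each aged list (1 ± 1 and 2 ± 0, SD, n = 3 each, exact permutation p = 0.4). The first young list matched the aged lists. Within chr2:28640993-28691172 (plus strand), a region of 167 bases at 75.8% of the gene and 1 of 188 bases at 89.3% had peaks at both ages. The third aged list lacked both and had 2 peaks of its own, 104 and 1022 bases wide. The number of Tsc1 peaks was therefore equal in the aged lists while their place was not.

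**Figure D2:**
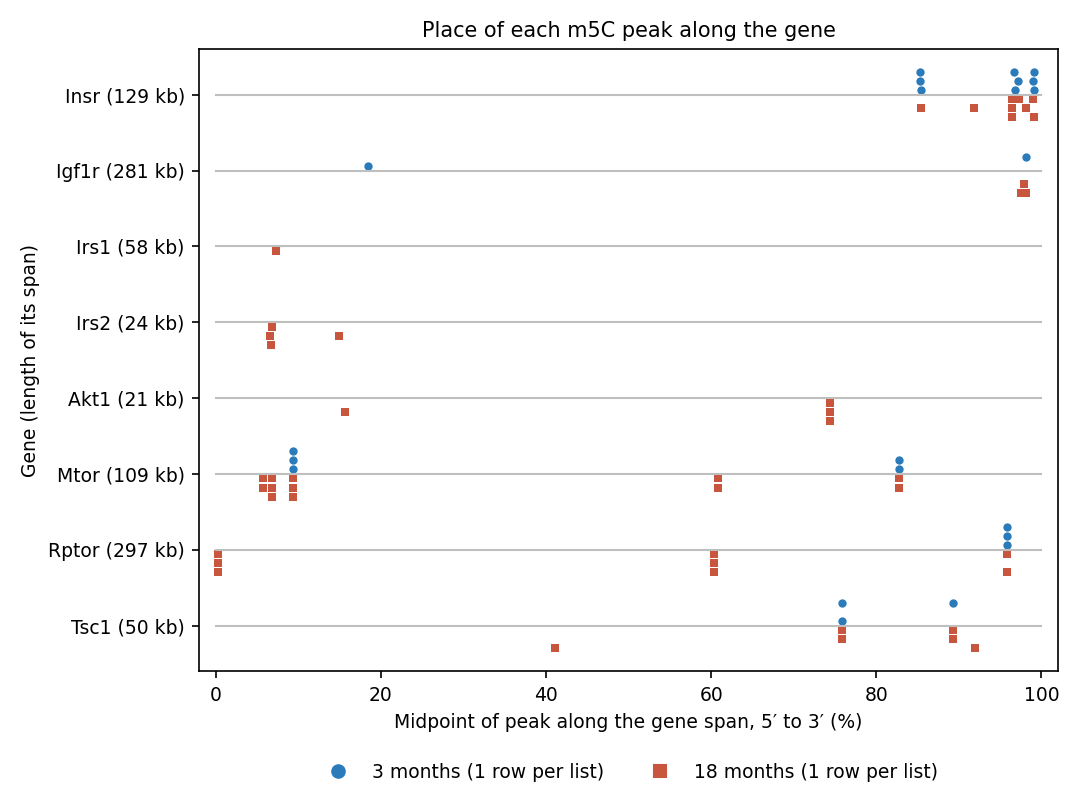
Midpoint of each peak as percent of the gene span from 5′ to 3′ (horizontal axis) for the 8 genes with a peak, with young lists above and aged lists below each line. Insr and Igf1r peaks crowd at the end of the gene, Irs2 peaks at its start, and most Akt1, Mtor, Rptor and Tsc1 peaks stand in narrow columns where a region recurs between lists.

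Set against length, Akt1 had 3.17 peaks per 100 kb of span in a list on average, followed by Tsc1 (2.99), Irs2 (2.75), Mtor (2.60) and Insr (2.33). Rptor (0.618), Igf1r (0.296) and Irs1 (0.286) were lower. Neighbours in this order overlapped in their range over the 6 lists except Insr, at 1.55 to 3.11, and Rptor, at 0.337 to 1.01. By number of peaks more in every aged than in every young list, Irs2, Akt1 and Rptor qualified, 3 of 8 or 37.5%, beside 11.9% of all genes with a peak. None of the 8 had fewer peaks in every aged list, a pattern held by 0.959% of genes. Peaks in all 6 lists were found in Insr, Mtor and Rptor, 3 of 8, beside 31.8% of all genes with a peak. No gene of the 9388 could reach a p of 0.05 in this design, and 1205 stood at 0.1.

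Of the 21 regions, 5 had peaks in the 3 aged lists and no young list (1 in Irs2, 1 in Akt1, 1 in Mtor and 2 in Rptor), beside 5.13% of all 24501 regions. None had the opposite pattern, which 0.637% of all regions had. The regions in all 6 lists numbered 2, in Insr and Mtor, beside 17.6% of all regions. In all, 12 regions (57.1%) were in no young list, against 38.9% of all regions, and 6 (28.6%) were in 1 list only, against 34.7%. Of the 15 regions found in at least 2 lists, 8 had the same start and end each time: 5 in Mtor, 2 in Tsc1 and 1 in Akt1. Over all regions, 10588 of the 15998 found in at least 2 lists had this, so it was not particular to these genes.

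The 69 peaks lay near the ends of the genes more often than between them. There were 18 (26.1%) with their midpoint in the first 10% of the span, 24 (34.8%) in the last 10% and 27 (39.1%) between. Among 55178 peaks of all genes at least as long as the shortest of the 9, the shares were 10.5%, 23.2% and 66.3%. Peaks of 1 gene share a transcript and those of 1 region recur between lists, so these shares are a description. Mtor gave most of the peaks near gene starts and Insr most of those near gene ends. Scores ran from 50.37 to 448.1, and 36 of 69 were under 100. At or above the median score of their list were 2, 0 and 2 young and 5, 2 and 5 aged peaks.

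With lists of equal length, both ages had the same mean number of peaks. After each list was reduced to its 8549 highest scores, the length of the shortest, the 9 genes had 6, 7 and 8 young and 7, 8 and 6 aged peaks. The mean was 7 at both ages (n = 3 each), and the genes with a peak numbered 3, 4 and 5 young and 5, 6 and 4 aged. Irs2 alone kept the pattern of peaks in every aged and no young list, with 1 in each aged list, where 1.34% of 7190 genes had this pattern. It was also the single gene of the 9 with more peaks in every aged list, beside 3.35% of all genes. Insr had 3 peaks in each young list and 2 in each aged list, fewer in every aged list, as did 3.44% of all genes. Akt1 kept 1 peak, in the second aged list. Mtor had 0, 2 and 2 young and 1, 2 and 1 aged peaks. Rptor had 1 in each young list and 2, 0 and 2 in the aged lists. The lowest score kept was 50 to 64.56 in the young lists and 105.35 to 120.52 in the aged lists. Shortening took the weakest peaks from every list but the second young list, and more from the aged lists, which were longer.

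**Figure D3:**
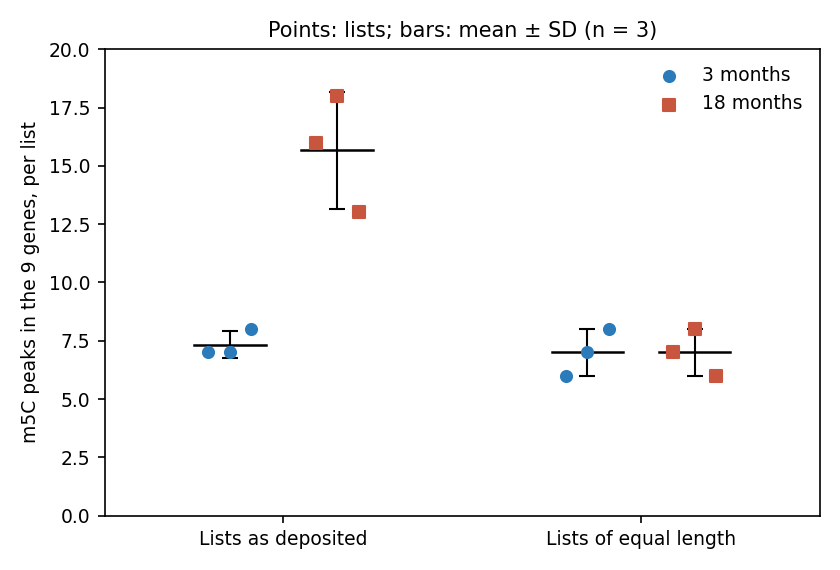
Number of m5C peaks in the 9 genes per list (points), with mean and SD over 3 lists per age, in the lists as deposited and in lists shortened to 8549 peaks each. As deposited the aged lists, at 13 to 18, lie above the young lists, at 7 to 8, and at equal length both ages have a mean of 7.

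Of the genome's other genes, those most like Insr in peaks per list over the 6 lists were taken by the sum of absolute differences. Dnajc2, a ribosome-associated chaperone, had the same 6 counts (3, 3, 3 young and 3, 4, 2 aged) and was the only gene at distance 0. Snapc1 and Prkcsh differed by 1 peak in 1 list.

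A list of 107 further genes of the pathway, written by role, showed where the 9 genes stood. Of these, 69 had a peak in some list and 24 in all 6, where 31.8% of all genes with a peak had one in all 6. More peaks in every aged than in every young list were found in 11 of the 69 (15.9%, beside 11.9% of all genes). Fewer in every aged list were found in 1, Ide, a pattern held by 0.959% of all genes. Peaks in 3 of 3 aged and 0 of 3 young lists were found in 4 of the 69 (5.80%, beside 4.19%): Dok4, Ptpn1, Phlpp1 and Prr5l. Together the 107 genes had 63.7 ± 10.7 peaks per young and 109 ± 7.57 per aged list (SD, n = 3 each), a ratio of 1.72 beside 1.52 over all genes. At equal length these became 57.3 ± 4.73 and 59 ± 6.24 (SD, n = 3 each). Of the 58 pathway genes with a peak at that length, none was higher in every aged list, beside 3.35% of all genes. Lower in every aged list were 3, Ide, Pik3cd and Lpin1, beside 3.44% of all genes.

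Ligands and their binding proteins had 3 to 6 peaks per young and 3 to 5 per aged list in 5 of 8 genes. Igf1, Ins2 and Igfbp3 had none. Igf2, a growth factor also made in choroid plexus and meninges, had 0, 0 and 2 young and 1, 2 and 2 aged peaks. Igfbp5, which binds insulin-like growth factors, had 1 in each young list and 1, 2 and 2 in the aged lists. Ide, the insulin-degrading enzyme, had 1, 2 and 1 young peaks and none in the aged lists, the reverse of Irs2 and Akt1. Peaks in every young and no aged list were held by 77 of all 9388 genes with a peak.

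Adaptors and docking proteins had 4 peaks in each young list and 11, 9 and 9 in the aged lists. Dok4, a docking protein of receptor kinases, had no young peak and 2, 1 and 2 aged peaks. Shc3, the neuronal Shc adaptor, had 1 in each young and 2 in each aged list, and Sh2b1, an adaptor of the insulin receptor, had 1, 1 and 0 young and 1, 2 and 2 aged peaks. Dok4 and Shc3 were 2 of the group's 9 genes with a peak (22.2%) with more in every aged list, beside 11.9% of all genes. At equal length none of the group was higher in every aged list, beside 3.35% of all genes. The group then had 4 ± 0 young and 5.33 ± 0.577 aged peaks (SD, n = 3 each). All 9 genes of the PI3-kinase group had peaks, with a summed 13, 8 and 14 young and 19, 15 and 17 aged. None of the 9 differed without overlap, beside 11.9% of all genes with more peaks in every aged list and 0.959% with fewer. Pik3r1, the main regulatory subunit of PI3-kinase, had 4, 3 and 3 young and 6, 6 and 3 aged peaks.

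Genes that switch the signal off had the largest difference in peaks per list of the 9 groups, with 9, 7 and 10 young and 22, 20 and 19 aged peaks. The means were 8.67 ± 1.53 and 20.3 ± 1.53 (SD, n = 3 each), a ratio of 2.35 beside 1.52 over all genes. The ratio was higher for the adaptors (2.42) and for the mTOR complexes, where it rests on few peaks (5, from 0.333 and 1.67 per list). Ptpn1, the phosphatase PTP1B that acts on the insulin receptor, had no young peak and 2, 1 and 1 aged peaks. The AKT phosphatases Phlpp1 (0 in each young, then 4, 2 and 2 aged) and Phlpp2 (3, 2 and 3 young, 5, 4 and 4 aged) both had more peaks in every aged list. So did Inpp4a, a phosphatase of PI3-kinase products, with 1, 0 and 0 young and 3, 7 and 4 aged peaks, named after its values were seen. With Ptpn1 these were 4 of the group's 8 genes with a peak (50%), beside 11.9% of all genes with a peak. Ppp2r5c, a regulatory subunit of protein phosphatase 2A, had 4, 3 and 5 young and 4 in each aged list. At equal length none of these genes was higher in every aged list, beside 3.35% of all genes. The group then had 7.67 ± 0.577 young and 10 ± 1 aged peaks (SD, n = 3 each).

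Downstream of AKT, the transcription factor Foxo3 had 1, 0 and 1 young and 3, 2 and 1 aged peaks, and the kinase Gsk3b had 1, 0 and 1 young and 5, 1 and 3 aged peaks, both with overlap. The other subunits of the mTOR complexes had few peaks, in 2 of 9 genes. Rictor, the defining subunit of mTOR complex 2, had 0, 0 and 1 young and 0, 1 and 1 aged peaks, and Prr5l, which binds that complex, had none young and 1 in each aged list. Tsc2, the partner of Tsc1, had no peak, and Rheb, the small GTPase that activates mTOR complex 1, had 1 in every list.

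Of the genes for amino acid and energy sensing, 17 of 31 had peaks. Their sums were 14, 11 and 17 in the young and 22, 23 and 18 in the aged lists. None of the 17 differed without overlap, beside 11.9% of all genes with more peaks in every aged list and 0.959% with fewer. Fnip1, a partner of folliculin, had 2, 1 and 3 young and 3 in each aged list, and Prkag2, a subunit of the energy-sensing kinase AMPK, had 2 in each young list and 2, 5 and 3 in the aged lists. Among 14 genes listed as mTOR complex 1 targets, which need not be its direct substrates, 9 had peaks. Together they had 16, 13 and 12 peaks in the young and 26, 21 and 25 in the aged lists. Of the 9, 4 (44.4%, beside 11.9% of all genes) had more in every aged list. Eif4b, an initiation factor, had 5, 4 and 4 young and 6, 6 and 7 aged peaks, and Larp1, which binds mRNAs of the translation machinery, had 3, 3 and 1 young and 6, 6 and 5 aged. The other two, named after their values were seen, were the cap-binding factor Eif4e (1 in each young list, then 2, 3 and 3) and the scaffold Eif4g1 (3, 2 and 2 young, 5, 4 and 5 aged). At equal length none of the 4 was higher in every aged list, beside 3.35% of all genes.

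**Figure D4:**
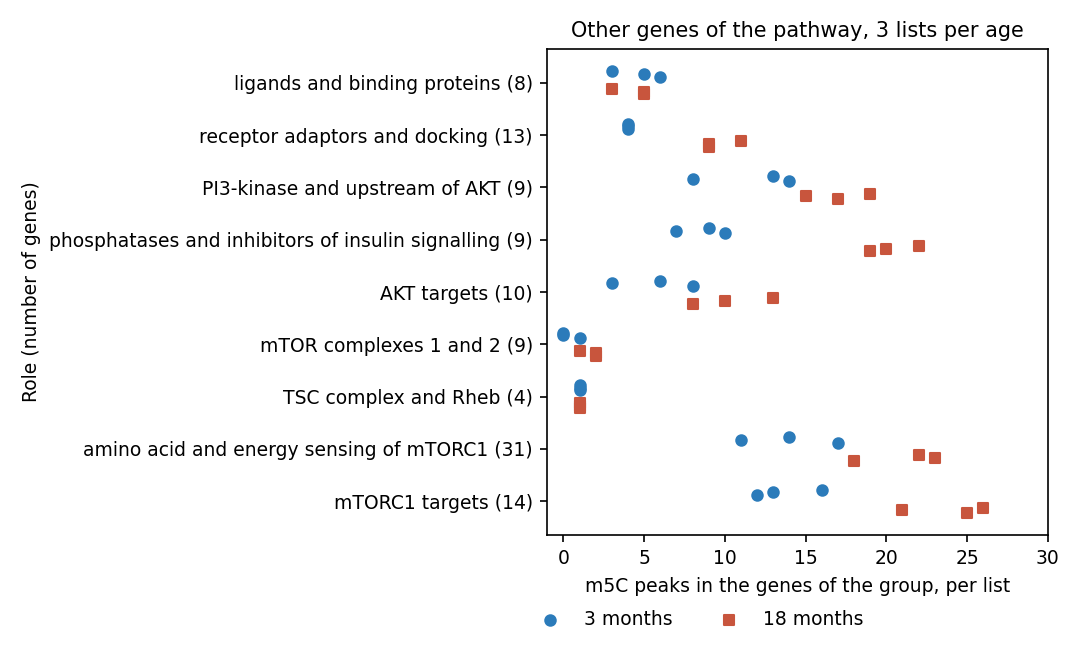
Number of m5C peaks per list (horizontal axis) summed over the genes of each of 9 role groups of the wider pathway, with the number of genes in parentheses and 3 lists per age. Phosphatases and inhibitors hold 7 to 10 peaks in young and 19 to 22 in aged lists, while ligands and binding proteins overlap between the ages.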

How the data were processed

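Reads were processed with cutadapt 1.9.3 and HISAT2 2.0.4 on mm10, per the submitters' processing notes. The peak names in the deposited lists carry the word MACS, with settings not given in the sources used here. Per the labels, the authors deposited, per IP library with its own input, the position, strand and score of each peak, so peaks were called per sample. Coordinates count from 1.

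Peaks were assigned to GRCm38.p6 RefSeq spans on the same strand by an overlap of at least 1 base. Strands came from RefSeq. Of 4395 genes with no RefSeq strand at hand, 1831, Insr included, took the majority strand of their unambiguous peaks. The others had no strand and so no assigned peak, but stayed in the shares over all protein-coding genes, also those by length. Of unambiguous peaks, 99.7% lay on the RefSeq strand. Exons were not used here. Regions are unions of touching or overlapping peaks on the same strand. Peaks per gene were compared by two-sided exact permutation tests with Benjamini-Hochberg adjustment over 9388 genes. Simulated lists checked the assignment of peaks and the calls of genes with peaks at 1 age alone, not the adjustment. Read depth is unknown, so no interval is given.

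The members and lists were chosen with earlier results of these data known. The text names all 9 genes, pathway genes with peaks in all lists of 1 age and none of the other, the 2 with the most peaks per role group, and the 3 nearest to Insr. A gene that this rule would name is not reported here. Python 3.11.15, numpy 2.4.6 and pandas 2.3.3 were used. Alternatives were a score of at least 100, equal lengths, midpoints, either strand, shared peaks left out, a 50% overlap, a replicate block and leaving out each list.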

Additional observations from a re-analysis of the deposited data

How the results depend on the processing

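Lists shortened to equal length moved most values. The aged minus young difference went from 2.67 to 1 for genes with a peak, from 8.33 to 0 for peaks, and from 7758 to 2537 for bases covered. Regions in every aged and no young list went from 5 to 1, regions in all lists from 2 to 1, and genes with more peaks in every aged list from 3 to 1 (Irs2). Igf1r turned from 0.333 to -0.333 and Tsc1 from 1 to -0.333. With scores of at least 100, the differences were 5.67 peaks and 5222 bases, 1 region was in every aged and no young list, 0 were in all lists, and Irs2 was the 1 gene with more peaks in every aged list. Leaving out each list in turn gave 0 to 1 regions in every young and no aged list, 2 to 4 regions in all lists, and 3 to 4 genes with more peaks in every aged list: Tsc1 joined without young list 1 and Mtor without aged list 3. The highest counts of the first 2 kinds came without aged list 2, while regions in every aged and no young list ranged from 5 to 7, the highest without aged list 3. Over the same settings Igf1r ran from -0.167 (without aged list 3) to 0.833 (without aged list 1). Using midpoints, either strand or no shared peaks gave the same 69 peaks. Same-numbered lists deviated together by correlations of 0.0187, 0.0799 and 0.0261, under the 0.1 needed to treat them as pairs. With a replicate block the difference stayed at 8.33 peaks, 3 genes were higher in each of the 3 pairs, and the smallest possible p was 0.25. Unknown read depth limits all values: a missing peak is a peak not called.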
